A study of Drosophila melanogaster with 42 samples.

Results

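The genes described here encode the proteasome, the protease that degrades ubiquitin-tagged proteins. They were found by symbol: every gene of the deposited count table whose name starts with Prosalpha, Prosbeta, Rpn or Rpt followed by a digit, which gave 47 of 17208 genes. Of these, 32 are the subunits themselves and 15 are related copies whose names carry a T or an R after the number. By role the 32 subunits are 7 alpha and 7 beta ring genes, 6 ATPases and 4 further subunits of the base, and 8 lid genes.

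The core particle is a barrel of stacked alpha and beta rings. The alpha rings gate the entrance, and Prosbeta1, Prosbeta2 and Prosbeta5 carry the sites that cut peptide bonds. A regulatory particle caps the barrel: its base holds a ring of Rpt ATPases that unfold substrates, with Rpn10 and Rpn13 as ubiquitin receptors, and its lid holds Rpn11, which removes ubiquitin chains. All subunits are needed in fixed proportions, and in animals cap'n'collar-type transcription factors (cnc in Drosophila) are known to raise their genes together when proteasome activity falls short.

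RNA from wing imaginal discs of third-instar Drosophila larvae was sequenced in 42 libraries. The discs came from wild type or from animals with a changed fat gene (ft), which encodes a large cadherin upstream of Hippo growth control and of the polarity of cells in the plane of the tissue. The NovaSeq X Plus read 2 libraries of WT and 2 of Fd5-5, 5 of delta HpoC, 4 of delta HpoN+PH and 5 of delta PCP (called HpoC, HpoN+PH and PCP below), and 3 of delta D. The NovaSeq 6000 read 3 libraries each of WT, delta C and delta F, and 4 each of delta A, delta B and delta E. Both wild types carry w1118.csvd111 in their library names. The study's design names fat nulls and mutants of functional domains and conserved parts of Fat without tying each label to one. How the alleles were made, and whether libraries of 1 group came from separate animals, is not given in the sources used here, so p-values measure only the spread between these libraries. Every mutant is set against wild type read on the same sequencer. In whole discs, fewer cells of a type and less RNA per cell cannot be told apart.

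Libraries held 19538208 to 48392354 counts, and levels are given as CPM, counts scaled to a common library size. The targeted gene ft was read in every library, at 220 to 766 CPM; a count per gene does not show which region is missing. All 12 wing disc markers listed (vg, nub, ap and others) had counts in every library. Ribosomal RNA genes took 5.11 to 17.4% of counts in 21 libraries and 0.79 to 1.68% in the other 21, a division at 3% drawn after the data were seen and called the rRNA class below. Both wild types lie in opposite classes: WT of the X Plus above, WT of the 6000 below. Fd5-5 and delta D were wholly below, delta A, delta C and delta F wholly above, and the other 5 mutants were mixed. The 6 libraries in the smaller class of their label were HpoC 1 and 2, HpoN+PH 1, PCP 5, delta B 4 and delta E 4. All 6 resembled another label more than their own (mean Spearman rho across genes 0.955 to 0.994 against 0.911 to 0.929). So did 11 others, all of the 5 mixed labels. The own-label partners of the 6 lie in the other class, except that HpoC 1 and 2 are partners of each other. The 6 were picked by class, so their likeness to another label is no separate evidence about their labels. Results are given with and without the 6.

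The level of the subunit genes followed the rRNA class. The median CPM of the 32 subunits was 335 ± 35.3 (SD, n = 21) in libraries above 3%, with a range of 257 to 406, and 168 ± 34.3 (n = 21) in libraries below it, with a range of 114 to 234. No library of one class reached the other. For 19 of the 32 subunits taken singly, the lowest library above 3% also exceeded the highest below. This separation was not counted over all genes, so it cannot be read as particular to the subunits. Together the 32 genes took 0.792 to 1.25% of all counts above 3% and 0.451 to 0.853% below.

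By label, the median subunit level was lowest in delta D, at 118 ± 6.60 CPM (n = 3), then in Fd5-5 at 150 ± 10.7 (n = 2) and in WT of the 6000 at 150 ± 17.5 (n = 3). Fd5-5 and WT of the 6000 did not differ beyond their spread. PCP stood at 221 ± 40.7 (n = 5), delta E at 221 ± 89.4 (n = 4), HpoN+PH at 239 ± 79.5 (n = 4) and HpoC at 270 ± 114 (n = 5), and the wide spread of these 4 came with their mixed classes. WT of the X Plus had 290 ± 8.76 (n = 2), delta B 291 ± 83 (n = 4), delta A 313 ± 40.3 (n = 4), delta F 341 ± 14.6 (n = 3) and delta C 381 ± 21.8 CPM (n = 3), the highest. Most neighbours in this order overlapped in their libraries. Those that did not were delta D (highest library 126 CPM) and Fd5-5 (lowest 142 CPM), WT of the 6000 (highest 163 CPM) and PCP (lowest 179 CPM), and delta F (highest 358 CPM) and delta C (lowest 368 CPM).

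**Figure D1:**
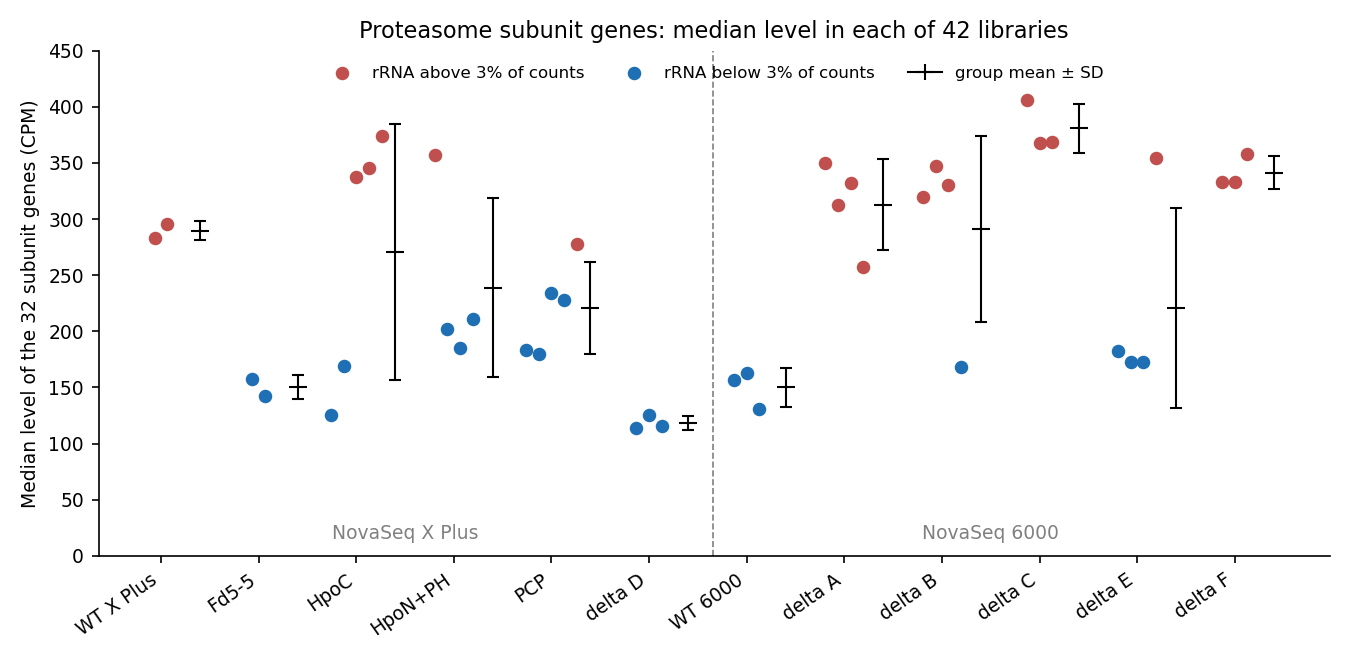
Median level of the 32 subunit genes in each library, in CPM, by label (points), with the group mean and SD beside them; red points have rRNA above 3% of counts and blue points below. Every red point lies at 257 CPM or more and every blue point at 234 CPM or less, also within the 5 labels that hold both.

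Within mixed labels the same difference appeared. The 3 HpoC libraries above 3% had medians of 338, 346 and 374 CPM and the 2 below had 126 and 169 CPM. The median log2 difference over the 32 subunits, above minus below, was 1.29 in HpoC, 1.01 in HpoN+PH, 0.41 in PCP, 1.01 in delta B and 1.003 in delta E. Over all 10098 genes measured on both sequencers these medians were between 0.02 and 0.06. In HpoC and delta B all 32 subunits were on the higher side in the libraries above 3%.

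The size of that difference went with transcript length. The subunits are mostly short: 30 of 32 have a longest annotated transcript of at most 2000 bases, from 815 bases in Prosbeta4 up. The 2 others are the large scaffold subunits of the base, Rpn1 (3041 bases) and Rpn2 (3412 bases). Within HpoC the log2 difference between classes was 2.14 in Prosalpha5 (884 bases) and 1.98 in Prosbeta7 (1215 bases), but 0.29 in Rpn1 and 0.24 in Rpn2. Across all genes of HpoC, the 4677 of 600 to 2000 bases had a median of 0.57 and the 3662 over 2500 bases −0.69, so the trend was not limited to the proteasome. The part of length in the subunit levels was not tested beyond the offset described below.

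On the NovaSeq X Plus, Fd5-5 had lower values than wild type in 31 of 32 subunits, with a median log2 fold change of −0.90, but 0 of the 35 members tested passed the threshold. The threshold throughout is an adjusted p below 0.05 in edgeR's quasi-likelihood test over all genes, and it was passed by 4.47% of the 10775 genes tested in Fd5-5. At an unadjusted p below 0.05 there were 10 of the 35 members, close to the 30.8% of all genes. DESeq2 called 1 member, Prosbeta4, and 9.75% of all genes. Rpn3, a lid subunit, was read at 183 and 167 CPM in Fd5-5 and at 296 and 321 CPM in wild type. Beta ring genes had the lowest median (−1.25), then the alpha ring (−1.15), the ATPases (−0.76), the lid (−0.61) and the other base subunits (−0.26). Without the 6 libraries, none of which belongs to either group but which share the fit, 29 subunits were called lower at the same median. Of all genes, 57.0% were called there, in either direction.

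HpoC, HpoN+PH and PCP had 0 members past the threshold in edgeR, 0 at an unadjusted p below 0.05 and 0 in DESeq2, against 3.82%, 4.84% and 3.61% of all genes called and 14.5%, 24.2% and 22.2% at an unadjusted p below 0.05. Their median log2 fold changes over the 32 subunits were −0.003, −0.26 and −0.38. The smallest adjusted p of a subunit was 0.492, 0.212 and 0.229, each time that of Prosalpha1, whose reads may be shared with a copy (below). Rpn3 ranged from 153 to 338 CPM in HpoC with a median of 323, from 230 to 353 CPM in HpoN+PH, and from 222 to 286 CPM in PCP with a median of 257. HpoC and HpoN+PH overlapped wild type (296 and 321 CPM), and PCP lay just below it. Leaving out PCP 5 gave 1 call, Prosalpha1, against 19.2% of all genes called.

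Without the 6 libraries these 3 comparisons parted. HpoC had 7 subunits higher (median 0.31, 27.9% of all genes called): Prosalpha2, Prosalpha3, the receptors Rpn10 and Rpn13, and the lid genes Rpn7, Rpn8 and Rpn11. HpoN+PH had 23 lower and 2 higher (median −0.59, 58.8% of all genes called), and PCP 21 lower and 2 higher (median −0.48, 57.6% of all genes called). The 2 higher genes were Rpn1 and Rpn2 in both. The libraries kept lie above 3% in HpoC and below it in HpoN+PH and PCP, while their wild type lies above.

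Delta D had the broadest fall of the subunit genes on the X Plus. All 32 were lower than in wild type without overlap between the groups, as were 40.1% of all genes. Past the threshold 21 fell, with a median log2 fold change of −1.20; 26.5% of all genes were called, 15.3% of all genes as falls. Of the 7 alpha and 7 beta ring genes, 6 and 6 fell, of the ATPases 4 of 6 and of the lid 5 of 8. None of the 4 other base subunits passed, though Rpn10 and Rpn13 had an unadjusted p below 0.05.

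Rpn3 had the smallest p. It was read at 139, 141 and 143 CPM in the 3 delta D libraries and at 296 and 321 CPM in wild type (log2 −1.14, SE 0.28, adjusted p = 0.0129 in edgeR). The ATPase Rpt6 had 139, 135 and 135 CPM against 372 and 378 CPM (log2 −1.47, SE 0.39, adjusted p = 0.0186). The beta ring gene Prosbeta3 had 105, 132 and 112 CPM against 459 and 455 CPM (log2 −1.98, SE 0.53, adjusted p = 0.0193). For all 3 genes every delta D library lay far below both wild-type libraries.

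Among the catalytic subunits, Prosbeta2 and Prosbeta5 fell in delta D (log2 −1.06 and −1.46, adjusted p = 0.0294 and 0.0413) and Prosbeta1 had a log2 of −1.36 with an adjusted p of 0.0534. The lid isopeptidase Rpn11 (log2 −0.88, adjusted p = 0.0699), the receptor Rpn10 (−1.20, 0.0538) and the ATPase Rpt3 (−0.91, 0.0565) did not pass. At the far end, Rpn1 changed least (log2 −0.20, SE 0.18).

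Most calls in delta D were lost without 1 of its 3 libraries. Leaving out delta D 1, 2 or 3 left 1 (Rpn3), 3 (Rpn3, Prosbeta3 and the copy Rpt6R) and 1 (Rpn3) of 22 members. Of all genes, 7.44%, 10.2% and 8.06% were called there, against 26.5% with all libraries. The median over the subunits stayed between −1.23 and −1.17. Leaving out WT 1 or WT 2 leaves 1 wild-type library, so only the median over the subunits is given, −1.21 and −1.18. Without the 6 libraries of other labels 31 subunits fell, against 63.9% of all genes called in either direction. Delta D and its wild type lie in opposite rRNA classes, and so do Fd5-5 and its wild type.

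**Figure D2:**
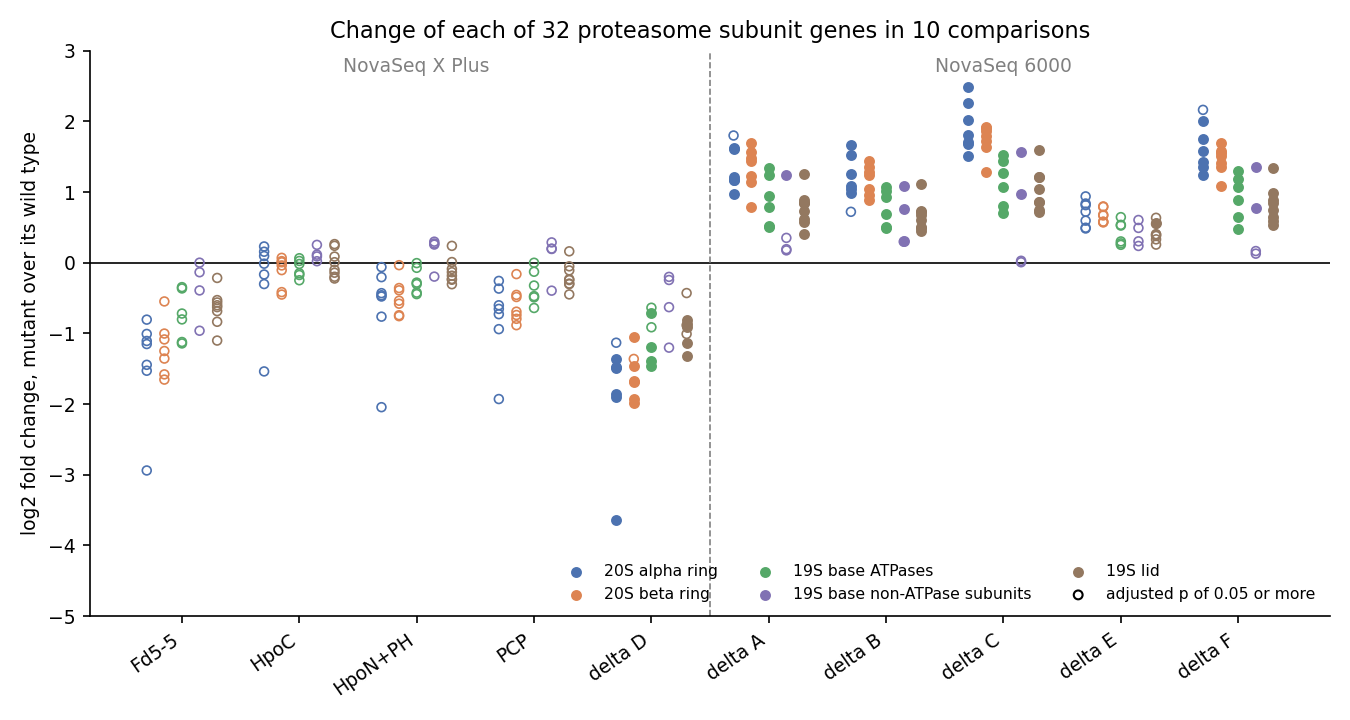
Log2 fold change of each of the 32 subunit genes in the 10 comparisons of a mutant with the wild type of its sequencer, coloured by role; filled points passed an adjusted p below 0.05 in edgeR. On the 6000 the medians are positive, up to 1.47 in delta C, and on the X Plus they lie at or below 0, down to −1.20 in delta D.

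On the NovaSeq 6000 most subunit genes rose in 4 of the 5 mutants. In delta A 28 of 32 rose and none fell (median log2 1.05), against 58.4% of all genes called and 30.4% called higher. Delta C had 30 of 32 higher (median 1.47), against 65.8% of all genes called and 33.8% higher. In delta F 29 of 32 rose (median 1.21), against 56.7% called and 28.2% higher. Delta B had 30 of 32 higher (median 0.94), against 32.2% called and 19.4% higher. Delta E had a median of 0.56 and 1 subunit past the threshold, Rpn3, against 5.13% of all genes called; 16 subunits and 20.9% of all genes had an unadjusted p below 0.05 there.

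The 5 comparisons share the 3 libraries of 1 wild type and are no independent repeats. In that wild type Rpn3 had 184, 178 and 154 CPM. Rpn3 had the smallest p of all subunits in every one of them. Its 4 delta A libraries had 351, 334, 344 and 271 CPM (log2 0.89, SE 0.16, adjusted p = 0.000951), and the 3 of delta C had 383, 354 and 348 CPM (log2 1.05, SE 0.17, adjusted p = 0.000195). All of them lay above every wild-type library.

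Delta F gave 326, 310 and 345 CPM for Rpn3 (log2 0.85, SE 0.17, adjusted p = 0.00271). The 4 delta B libraries gave 318, 324, 305 and 208 CPM (log2 0.72, SE 0.16, adjusted p = 0.0106) and those of delta E 241, 234, 220 and 337 CPM (log2 0.57, SE 0.16, adjusted p = 0.0465). Delta B 4 and delta E 4, the 2 libraries in the smaller class of their labels, were the lowest and the highest of their groups.

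The core particle genes had the highest medians. In delta C the median log2 fold change was 1.81 over the alpha ring, 1.79 over the beta ring, 1.17 over the ATPases, 0.95 over the lid and 0.50 over the 4 other base subunits. All alpha, beta, ATPase and lid genes passed there, and Rpn10 and Rpn13 were the 2 base subunits that passed. Delta A, delta B and delta F also had both rings above the other roles, with alpha ring medians of 1.21, 1.09 and 1.58, beta ring medians of 1.44, 1.24 and 1.51, and ATPase medians of 0.86, 0.81 and 0.97. These are medians of few genes and the difference between roles has no test. In all of delta A, delta C and delta F, Rpn1 and Rpn2 did not pass, and their log2 fold changes were between 0.01 and 0.19.

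Prosbeta3 showed the rise of the core in single libraries. It was read at 155, 168 and 130 CPM in wild type and at 564, 540, 536 and 361 CPM in delta A (log2 1.70, SE 0.33, adjusted p = 0.00128). Rpt6, an ATPase, went from 180, 173 and 143 CPM to 461, 441, 452 and 354 CPM in delta A (log2 1.34, SE 0.25, adjusted p = 0.00104). Delta A 4 was the lowest delta A library for both genes, yet lay above wild type.

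Prosbeta4, a structural beta ring subunit, had 67.6, 86.4 and 77.8 CPM in wild type of the 6000. It had 219, 240, 248 and 94.1 CPM in delta B (log2 1.35, SE 0.31, adjusted p = 0.0129) and 244, 235 and 251 CPM in delta F (log2 1.58, SE 0.33, adjusted p = 0.0028). The groups did not overlap, though delta B 4 came close to wild type.

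In the lid, Rpn11 had 145, 134 and 110 CPM in wild type against 328, 305 and 289 CPM in delta C (log2 1.22, SE 0.21, adjusted p = 0.000224) and 259, 265 and 287 CPM in delta F (log2 0.98, SE 0.21, adjusted p = 0.0028). Rpn12, which helps to lock the lid onto the base, had 66, 66.4 and 55.3 CPM against 165, 141 and 136 CPM in delta C (log2 1.21, SE 0.21, adjusted p = 0.000241). Every delta C library lay above every wild-type library in both genes.

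All 3 catalytic subunits rose in delta A, delta B, delta C and delta F. Prosbeta1 stood at 114 ± 17.7 CPM in wild type of the 6000 and at 272 ± 30.1, 240 ± 77.3, 384 ± 21.7 and 319 ± 18.9 CPM in these 4. The level of Prosbeta2 was 104 ± 16.3 CPM in wild type and 184 ± 21, 195 ± 49.2, 259 ± 11.1 and 233 ± 9.8 CPM in the mutants. Prosbeta5 had 181 ± 27.3 CPM in wild type and 407 ± 59.8, 356 ± 108, 571 ± 44.7 and 489 ± 20.2 CPM. Fold changes ran from log2 0.79 (Prosbeta2, delta A) to 1.72 (Prosbeta1, delta C). Delta B overlapped wild type for Prosbeta5.

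Elsewhere, Prosbeta1 had 231 ± 1.17 CPM in wild type of the X Plus, 110 ± 5.58 in Fd5-5, 90.6 ± 12 in delta D and 174 ± 93.2 in delta E. Prosbeta5 had 356 ± 17.3, 180 ± 4.15, 131 ± 18.9 and 275 ± 133 CPM in the same order. The receptor Rpn10 rose from 174 ± 17.3 CPM in wild type of the 6000 to 420 ± 46.8 in delta A, 374 ± 134 in delta B, 523 ± 14.1 in delta C and 470 ± 18.7 CPM in delta F. Rpt3 rose from 237 ± 28.6 CPM to 417 ± 42, 388 ± 94.7, 507 ± 31.6 and 459 ± 14.7 CPM. In delta B, libraries of both genes overlapped wild type. Both were lower in delta D (145 ± 2.74 and 200 ± 7.82 CPM) than in its wild type (331 ± 1.02 and 374 ± 10.9 CPM), without passing the threshold.

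Delta B and delta E rest on few libraries. In delta B, 32 members passed, and 32.2% of all genes. Leaving out WT 2 or WT 3 left 0 members, with 1.02% and 2.02% of all genes called. Leaving out delta B 1, 2 or 3 left 17, 9 and 5 members, with 11.1%, 6.15% and 5.52% of all genes called. The 5 were Prosbeta4, Rpn3, Rpt3R, Rpt5 and Rpt6. In the fit of only delta B and wild type no member passed, and 0% of all genes. Without delta B 4 and the other libraries of the smaller class, 31 subunits rose (64.4% of all genes called). In delta E the call of Rpn3 was lost without WT 1, WT 2, WT 3, delta E 1, delta E 2 or delta E 4. Of all genes, 1.36 to 7.59% were called in these fits, against 5.13% with all libraries. Leaving out delta E 4 and the other 5 libraries gave 10 subunits higher (median 0.24, 15.8% of all genes called), namely Prosbeta2, Prosbeta4, Rpt5, Rpt6, Rpn1, Rpn2, Rpn3, Rpn5, Rpn6 and Rpn12. The same exclusion left delta A with 31, delta C with 30 and delta F with 30 subunits higher. Of all genes, 69.7%, 72.4% and 66.7% were called there, in either direction.

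Across the 32 subunits the change went with transcript length in all 10 comparisons but HpoC. Pearson's r between log2 fold change and log2 length was −0.85 in delta C, −0.80 in delta F, −0.73 in delta A, −0.70 in delta B and −0.68 in delta E, and 0.66 in delta D and 0.63 in Fd5-5 (n = 32 genes of the same libraries, a description). Except in HpoC and HpoN+PH, other genes of 815 to 2000 bases had a median of the same sign and nearer to 0. In delta C the 4103 genes of 815 to 2000 bases had a median of 0.73 and 54.1% were called higher, whereas the 30 subunits of that length had a median of 1.52 and all 30 were called. For delta D these medians were −0.61 over 4238 genes and −1.26 over the 30 subunits. With an offset that removes each library's trend with length, 32 members were higher and 1 lower in delta C, 31 and 1 in delta F, 27 higher in delta B, 25 higher in delta A and 16 lower in delta D. The share of all genes called with that offset was 53.1%, 45.5%, 27.5%, 45.6% and 24.4% in the same order. The median over the 32 subunits went with the offset from 1.47 to 0.96 in delta C, from 1.21 to 0.87 in delta F, from 0.94 to 0.62 in delta B, from 1.05 to 0.62 in delta A and from −1.20 to −0.83 in delta D.

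**Figure D3:**
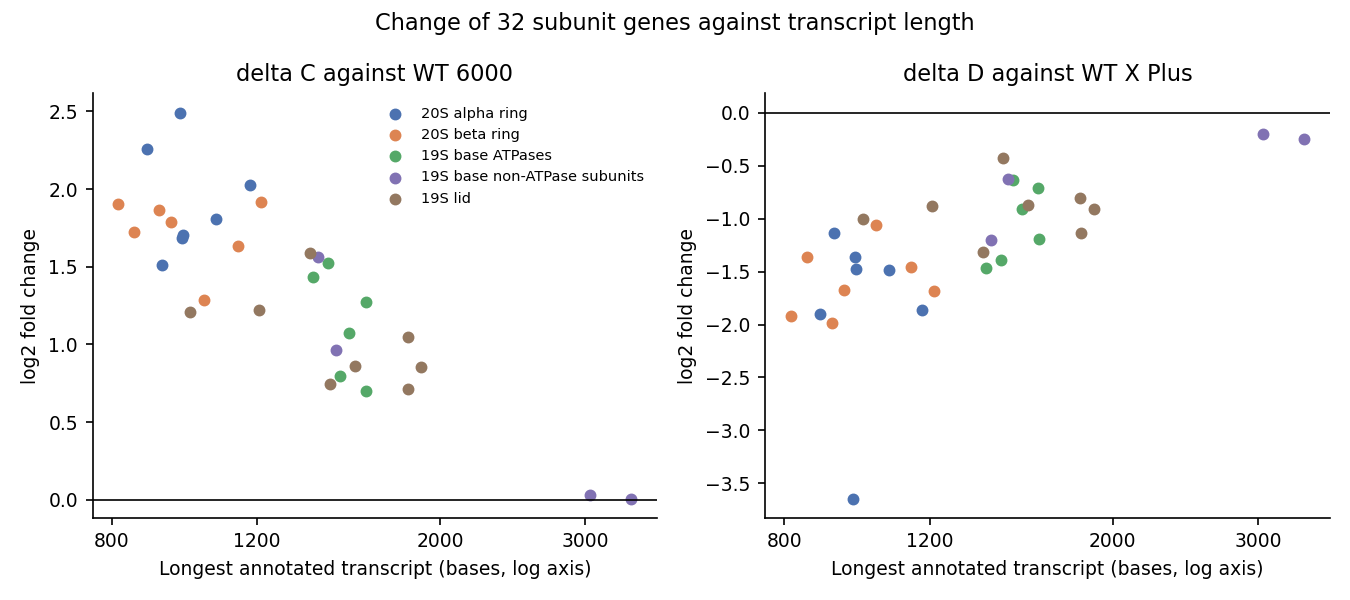
Log2 fold change of the 32 subunit genes against the length of the longest annotated transcript in bases (log axis), for delta C and delta D, coloured by role. Rpn1 and Rpn2, the points at 3041 and 3412 bases, lie nearest to 0 in both, and the short core genes lie farthest from it.

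With the rRNA class as a term in the fit, calls were absent in 8 comparisons. Fd5-5, HpoC, HpoN+PH, PCP, delta D, delta A, delta B and delta F had 0 of 32 subunits past the threshold, with 0, 3, 6, 6, 7, 4, 3 and 1 at an unadjusted p below 0.05 in edgeR, against 15.9%, 27.5%, 26.0%, 19.1%, 21.5%, 22.3%, 9.46% and 10.6% of all genes. The shares of all genes called there were 3.64%, 12.3%, 6.53%, 3.69%, 7.69%, 4.22%, 0.106% and 0.281%. In delta D the median log2 fold change went from −1.20 to −0.24 and in delta A from 1.05 to 0.05. DESeq2 was not run with this term. The term is estimated from the mixed labels alone, and so from the 6 libraries that resemble another label.

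Delta C and delta E kept calls under that term. Delta C had 11 subunits higher (median 0.39, 13.0% of all genes called): Prosbeta1 to Prosbeta5, Rpt4, Rpt6, Rpn3, Rpn7, Rpn11 and Rpn12. Delta E had 4 higher (median 0.22, 9.36% of all genes called): Prosbeta2, Rpt6, Rpn3 and Rpn12. The 4 of 32 subunits in delta E were a share not far above the 9.36% of all genes. At an unadjusted p below 0.05 in edgeR there were 16 subunits in delta E, against 23.2% of all genes. Prosbeta2, Rpt6, Rpn3 and Rpn12 were called in both comparisons. Both share the wild type of the 6000 and the same estimate of the class term, so this overlap is no independent repeat.

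Inside the class of the wild type 2 comparisons had replicates. The rRNA share can still differ there: it was 8.88 to 11.7% in HpoC 3 to 5 and 17.1 and 17.4% in WT of the X Plus. The part of that difference in the subunit levels was not tested. HpoC 3 to 5 against WT of the X Plus had 22 subunits higher and 1 lower, with a median log2 fold change of 0.36, against 46.4% of all genes called. Its highest value was 0.76, in Prosalpha3, and the lower gene was Prosalpha1. Delta E 1 to 3 against WT of the 6000 had 2 higher, Prosbeta4 and Rpn3 (median 0.22, 14.4% of all genes called). The other 3 mixed labels had 1 library each in that class, with medians of 0.38 (HpoN+PH 1), −0.03 (PCP 5) and 0.12 (delta B 4). Assuming that HpoN+PH 1 varies like the other groups, 21 subunits were higher and 1 lower there, and none passed for PCP 5 and delta B 4, in edgeR, with 0 at an unadjusted p below 0.05 against 7.62% and 7.66% of all genes. Of all genes, 35.5% were called for HpoN+PH 1, 2.20% for PCP 5 and 0% for delta B 4.

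The 2 wild types differed in the same way as the classes. In 1 fit of all 42 libraries, WT of the X Plus had 11 subunits higher than WT of the 6000 and none lower (median log2 0.89, 24.7% of all genes called). Delta D fell against one and the 6000 mutants rose against the other. The difference of the log2 fold changes, that of the 6000 mutant minus that of delta D, had a median of 2.32 in delta A, with 32 subunits called and 63.5% of all genes. It was 2.22 in delta B (32 called, 58.0% of all genes), 2.72 in delta C (30 called, 67.2%), 1.78 in delta E (31 called, 40.9%) and 2.53 in delta F (31 called, 64.0%). These comparisons cross sequencer, wild type and rRNA class at once, which cannot be told apart here.

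Compared per length, the order of the roles differed between the classes. Per kilobase of longest transcript, the alpha ring had a median of 333 ± 52.9 CPM per kb (n = 21) above 3% and 106 ± 23.8 (n = 21) below, and the beta ring 332 ± 41.9 and 123 ± 27.6. The ATPases had 258 ± 26.1 and 150 ± 24.4, the lid 180 ± 14.3 and 115 ± 19.7, and the other base subunits 146 ± 14.6 and 124 ± 21.5 CPM per kb. Above 3% the core genes were therefore highest, and below 3% the ATPases. The ratio of ATPases to alpha ring was 0.695 in delta C 2, the lowest, and 0.918 in delta A 4, the highest above 3%, and ran from 1.26 to 1.71 in libraries below. The most abundant subunit per length was Prosbeta3 in all 21 libraries above 3%.

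**Figure D4:**
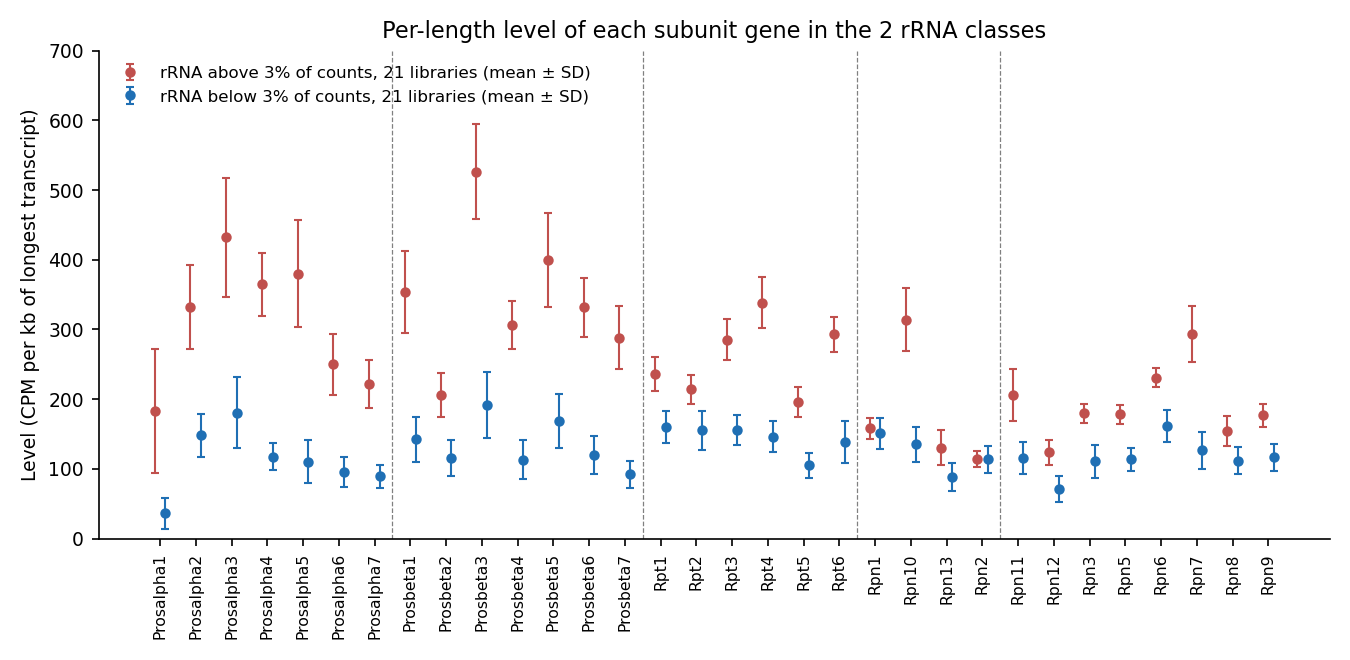
Level of each subunit gene per kilobase of its longest transcript (CPM per kb), mean and SD over the 21 libraries of each rRNA class, grouped by role. The core genes at left differ by class, with alpha ring medians of 333 against 106 CPM per kb, whereas the classes overlap for Rpn1 and Rpn2.

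Within each class the 32 genes still varied together. The correlation of a gene's log2 level with the median of the 32 had a median of 0.977 over the 42 libraries, 0.892 over the 21 above 3% and 0.930 over the 21 below (Pearson's r, a description, since the genes share libraries and scaling). Prosbeta6 followed it most closely above 3% (r = 0.984) and Rpn10 below (r = 0.977). Rpn1 and Rpn2 followed it below 3% (0.922 and 0.865) but not above (0.112 and −0.0770).

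Prosalpha1, a gate subunit of the alpha ring, followed it in neither class (0.0308 and −0.138). It lies at 2R:7827303-7828678 (dm6, minus strand), 1734 bases from CG30382 at 2R:7830413-7831771, a gene known to encode an almost identical protein. Reads of such copies can be split between them, so the level of either alone is uncertain. The share of the pair's level assigned to Prosalpha1 ran from 1.16 to 72.1%, and in wild type of the 6000 alone Prosalpha1 had 3.12, 38.6 and 67.6 CPM while the sum had 268, 283 and 226 CPM. Its large values in the tests above, such as log2 −3.64 in delta D, carry this limit.

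The sum of both genes was steadier, apart from 6 libraries. Divided by the median of the 32 subunits it was 1.49 to 2.0 in 36 libraries. In delta B 1 to 3 it was 0.902, 0.914 and 0.925, and in delta E 1 to 3 it was 0.887, 0.893 and 0.894. Delta B 4 had 1.77 and delta E 4 had 1.796. In CPM the sum was 288, 317 and 306 in delta B 1 to 3, while delta F, in the same class, had 631, 622 and 677 CPM. It was 162, 154 and 155 CPM in delta E 1 to 3, while the wild type below 3% had 268, 283 and 226 CPM. Both groups of 3 thus stood apart from the other libraries on either side of the rRNA division; this ratio was examined after its values were seen and has no test.

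**Figure D5:**
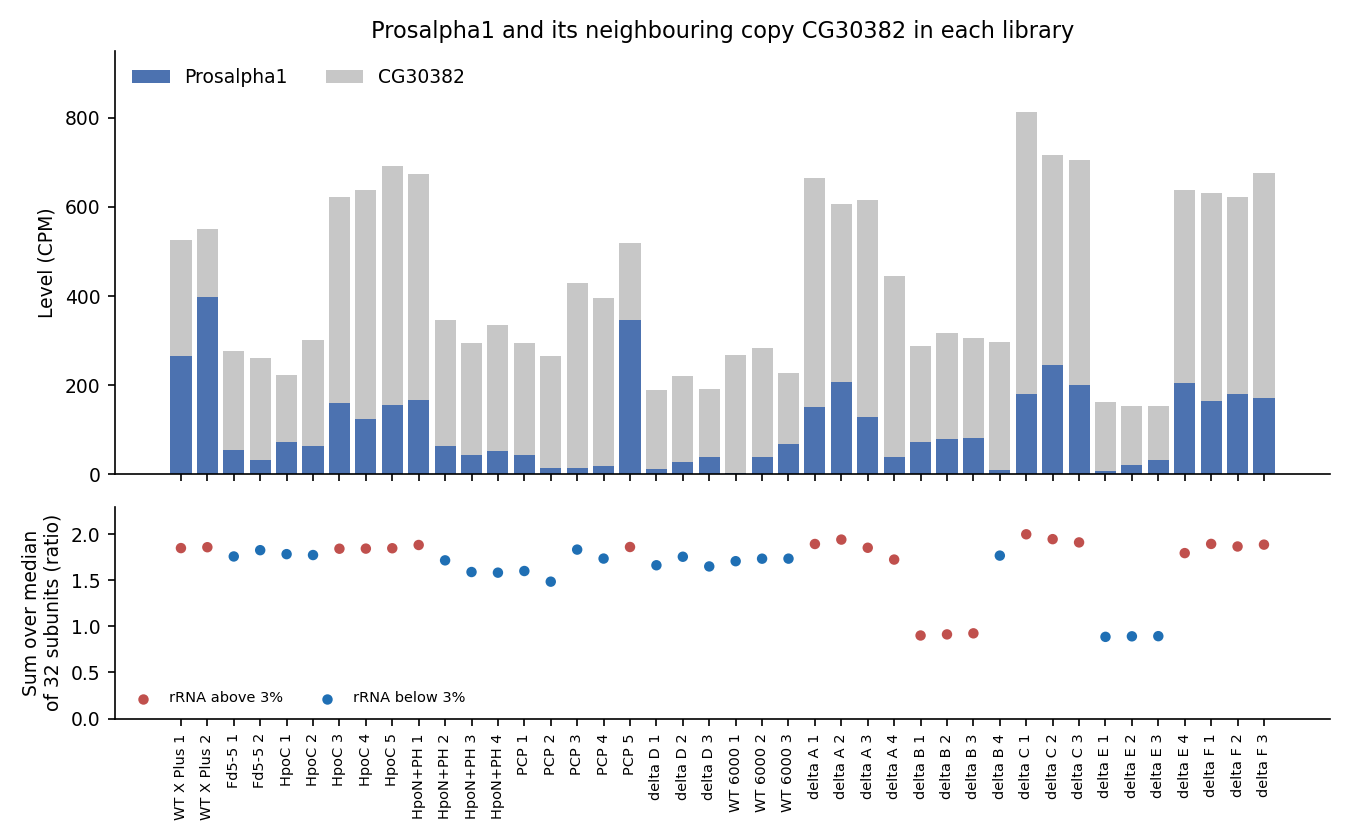
Level of Prosalpha1 (blue) and CG30382 (grey) in CPM as stacked bars in each library, and below them the sum divided by the median of the 32 subunits, coloured by rRNA class. Delta B 1 to 3 and delta E 1 to 3 lie at 0.887 to 0.925 and the other 36 libraries at 1.49 to 2.0.

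Most of the related copies were barely read. Several such copies are known in Drosophila as variants made in the male germ line. Of the 15, 12 had at most 11 counts in any library and were not tested; Prosbeta2R2 had the 11 counts, in delta B 3, and the other 11 copies had at most 6. Prosalpha3T, Prosalpha6T and Rpt4R were at 0 in 38 of 42 libraries. A library at 0 allows up to 3 counts, counting error only. The testis marker list summed to 25.1 to 46.2 CPM over all libraries.

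The other 3 copies were tested. Rpt3R, a relative of the ATPase Rpt3, had 1.92 to 19.3 CPM and moved with the subunits: it fell in delta D (2.17 ± 0.283 against 7.06 ± 0.107 CPM, log2 −1.71, adjusted p = 0.0326) and rose in delta A, delta B, delta C and delta F. In delta B it had 16.3, 15.9, 19.3 and 2.79 CPM against 2.73, 3.3 and 2.81 CPM in wild type (log2 2.18, SE 0.47, adjusted p = 0.00978). Only delta B 4 lay inside the wild-type range, and against wild type of its class its log2 value was −0.09.

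Rpt6R had 0 to 1.26 CPM. In wild type of the 6000 it had 0, 1 and 1 counts, and it entered the tests of that sequencer through the mutants where it is higher, with 36, 21, 13 and 4 counts in delta A. Nothing is read from its calls in delta A and delta B, and no fold is given; the counts of members in both include it. Rpn13R had 0.907 to 6.75 CPM and passed in none of the 10 comparisons; its log2 values were 0.83 in delta D and −0.91 in delta C, opposite in sign to the subunits.

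Other genes of the pathway were taken from lists by role, described without a set test. For comparison with all these lists, 30.4% of all genes were called higher and 28.1% lower in delta A. These shares were 33.8% and 32% in delta C, 28.2% and 28.5% in delta F, 19.4% and 12.8% in delta B, and 11.2% and 15.3% in delta D. Of 7 assembly and cofactor genes measured, 6 rose and 1 fell in each of delta A, delta C and delta F, 5 rose in delta B, and 5 fell in delta D. Pomp, the chaperone of core assembly, rose in delta C (398 against 113 CPM, log2 1.79, adjusted p = 0.000306) and fell in delta D (98.7 against 295 CPM, log2 −1.59, adjusted p = 0.0255). Sem1, the smallest lid subunit, outside the name rule, rose in delta A (log2 1.87) and fell in delta D (log2 −2.46). The gene that fell in the 3 mutants was ntc, an F-box gene known to activate proteasomes in spermatids, at 5.32 against 10.6 CPM in delta A.

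Of 10 genes for ubiquitin supply and shuttles, 5 rose and 3 or 4 fell in delta A, delta C and delta F, 5 rose and 1 fell in delta B, and 2 rose and 3 fell in delta D. RpS27A and RpL40, named after their values were seen, are short genes that encode ubiquitin fused to a ribosomal protein; they rose in delta C (log2 3.01 and 2.61) and fell in delta D (log2 −3.08 and −2.61). The long genes Usp7, a deubiquitinase, and Uba1, the ubiquitin-activating enzyme, fell in delta C (log2 −2.76 and −0.97). The shuttle gene Ubqn rose in all 5 mutants of the X Plus, from 29.4 CPM in wild type to 530 in Fd5-5, 375 in HpoC, 505 in HpoN+PH, 455 in PCP and 519 CPM in delta D, and stood at 517 CPM in wild type of the 6000. It was the one gene of these lists called in Fd5-5, HpoC, HpoN+PH and PCP.

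The genes of 2 transcription factors went opposite ways. Cnc fell in delta A (67.5 against 149 CPM, log2 −1.16, adjusted p = 0.00946), delta C (−1.71, 0.00103) and delta F (−1.33, 0.00736), where the subunits rose, and rose in delta D (160 against 62.9 CPM, log2 1.34, adjusted p = 0.0499). Its partner maf-S rose in delta A, delta C and delta F (log2 1.15, 1.34 and 0.93) and fell in delta D (log2 −1.39). The longest transcript of cnc has 6954 bases and that of maf-S 646 bases. Both belong to a list of 5 regulators of subunit transcription, with Keap1, rngo and Pngl. Of these 5, 1 rose and 3 fell in delta A and in delta F, and 1 rose and 2 fell in delta C. In delta B 1 fell, and in delta D 2 rose and 1 fell. The gene rngo is also among the 10 genes for ubiquitin supply and shuttles above.

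Of 6 antioxidant genes under cnc tested on the 6000, 2 rose and 1 fell in delta A, and 3 rose in delta B. In delta C 4 rose and 1 fell, and in delta F 3 rose and 1 fell. On the X Plus 5 were tested, of which 1 rose and 2 fell in delta D. Within this list Sod1 rose in delta A, delta B, delta C and delta F (log2 2.17, 1.51, 2.38 and 2.04) and fell in delta D (log2 −2.41). Among the p97 segregase and its adaptors, which hand substrates to the proteasome, 2 of 7 rose in delta A, delta B and delta F and 3 in delta C, near the shares of all genes called higher there (30.4%, 19.4%, 28.2% and 33.8%). They were Ufd1-like and p47 in each, with Npl4 in delta C, and Ufd1-like fell in delta D. TER94, the segregase itself, passed in none of the comparisons. Delta E had 1 of these neighbouring genes past the threshold, the thioredoxin Trx-2 (log2 1.01, adjusted p = 0.00567).

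Markers of other tissues differed between libraries too. The summed level of 8 muscle genes was 929 ± 374 CPM in wild type of the X Plus (n = 2), at most 184 ± 184 CPM in its mutants, and 23.2 ± 6.71 CPM in wild type of the 6000 (n = 3) against 459 ± 102 CPM in delta A (n = 4). All 8 had counts in every library of both wild type of the X Plus and delta A. Gut genes summed to 948 ± 1175 CPM in delta A and to 12.9 CPM or less as a mean in each other group. Fat body genes summed to 5907 ± 7351 CPM in Fd5-5 (n = 2), 5820 ± 6456 in PCP (n = 5) and 5342 ± 6887 in delta A (n = 4). HpoC had 3044 ± 4830 CPM (n = 5), and each other group had a mean of 196 CPM or less. In delta C and delta F these sums were 4.53 ± 1.75 and 3.12 ± 0.644 CPM, and those of gut genes 0.239 ± 0.0801 and 0.341 ± 0.125 CPM. Muscle genes summed to 168 ± 177 CPM in delta C and 60.3 ± 13.6 CPM in delta F. The part of these tissues in the subunit levels was not tested.

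The 32 genes are spread over the genome, with 10 on chromosome arm 2R, 9 on 3R, 5 on 3L, 4 on 2L and 4 on X. The exons of 13 share bases with a gene on the other strand, Prosbeta3 and Rpt6 among them, and those of Rpn3 and Rpn11 do not. Whether the counting used strand is not given in the sources used here, so reads of such partners cannot be told apart from those of the subunit.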

How the data were processed

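Whole-disc RNA was sequenced in 42 libraries. The authors deposited 1 table of estimated counts per gene, made with Trimmomatic 0.33, FastQC 0.10, Salmon 1.80 and edgeR on dm6 per the submitters' processing notes; the strand setting of the counting is not given in the sources used here. The 42 columns were matched to libraries by name, and 0 columns were left unused. Counts were rounded to whole numbers, filtered with filterByExpr, scaled by TMM and tested with edgeR 4.0.16 (quasi-likelihood, Benjamini-Hochberg over all genes tested, R 4.3.3), in 1 fit for each sequencer with the label as the only term. Alternatives used DESeq2 1.42.0, other scalings, filters and sample sets, an offset for transcript length and the rRNA class. Leaving out the 6 libraries, and 1 fit of all 42, were chosen after seeing the data. The edgeR test was tried on simulated counts with less spread between libraries than these data and without rRNA classes. That trial does not show how the test performs under the conditions of these data. Figures were drawn with matplotlib 3.10.9.

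Members, lists and tests were chosen with earlier results of these data known. Named in each comparison were up to 3 called members of smallest p in each direction, Prosbeta1, Prosbeta2, Prosbeta5, Rpt3, Rpn10 and Rpn11, the extremes, and up to 2 genes of each related list; other names were chosen after their values were seen. Of 17208 identifiers, 17083 were found in the annotation BDGP6.54, which gave coordinates and transcript lengths. A planned search of promoters for motifs was not run, since promoter sequences were not used here. No 2 libraries of a label agreed within counting noise (58 pairs, chi-square per degree of freedom 10.6 to 1790). Libraries with the same replicate number did not deviate together (mean r −0.026, against 0.0016 for different numbers; every pair over 0.1 in 0 of 21 pairs of groups), so numbers were not taken to pair libraries. Reads carry no molecular identifiers, so a limit on a count of 0 covers counting error only.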

Additional observations from a re-analysis of the deposited data

Results flagged for a closer look

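Of 19 sets of values, each 1 measure in 1 label, examined for a single library far from the rest, 7 had one. Chance gives about 1 in 20 for independent sets. These sets share libraries and related measures, so that rate does not apply to the count of 7. The median level of the 32 subunits was 357 CPM in HpoN+PH 1 and 185 to 211 CPM in the other HpoN+PH libraries, and the sum of Prosalpha1 and CG30382 was 673 CPM against 294 to 347 CPM. In delta B 4 the median was 168 CPM against 320 to 347 CPM, and Rpn3 had 208 CPM against 305 to 324 CPM. In delta E 4 the median was 355 CPM against 173 to 182 CPM, and the sum of Prosalpha1 and CG30382 was 637 CPM against 154 to 162 CPM. These 3 libraries are in the smaller rRNA class of their labels. Prosbeta3 had 361 CPM in delta A 4 against 536 to 564 CPM in delta A 1 to 3, all in 1 class.

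The change of the subunits on the 6000 differed from that in delta D. Tested in 1 fit of all 42 libraries, the median difference of log2 fold changes was 2.32 for delta A, 2.22 for delta B, 2.72 for delta C, 1.78 for delta E and 2.53 for delta F. Sequencer, wild type and rRNA class cannot be told apart in it.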

How the results depend on the processing

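Counts of members past the threshold changed by over 1.5 times as follows, with the share of all genes called in brackets. In Fd5-5 they went from 0 to 1 in DESeq2 (Prosbeta4, 9.75%). They were 30 with only both groups in the fit (58.7%) and 30 without the 6 libraries (57.0%). In HpoC they went from 0 to 23 within the class of wild type (46.4%) and 7 without the 6 libraries (27.9%). Without the 6 libraries they went from 0 to 26 in HpoN+PH (58.8%) and from 0 to 24 in PCP (57.6%). Delta D went from 22 to 13 with no filter on low counts (11.2%). With the rRNA class as a term the counts were 0 in delta D (7.69%), delta A (4.22%), delta B (0.106%) and delta F (0.281%). They were 11 in delta C (13.0%) and 4 in delta E (9.36%). Delta B had 0 with only both groups (0%). Delta E went from 1 to 0 with no filter (2.54%), 2 in DESeq2 (Rpn3 and Rpn12, 6.71%) and 0 with only both groups (1.54%). It had 2 within the class of wild type (14.4%) and 10 without the 6 libraries (15.8%). With 1 library of the mutant left out the counts ranged from 1 to 3 in delta D (7.44 to 10.2%) and 0 to 1 in PCP (2.93 to 19.2%). With 1 library of either group left out they ranged from 0 to 33 in delta B (1.02 to 56.6%) and 0 to 1 in delta E (1.36 to 7.59%). The replicate block gave 1 in PCP (Prosalpha1, 6.68%), 26 in delta D (30.7%) and 31 in delta C (64.6%). It gave 30 in delta A (55.5%), delta B (31.4%) and delta F (54.4%). It gave 0 in Fd5-5 (5.08%), HpoC (4.46%), HpoN+PH (5.00%) and delta E (4.83%). Same-numbered libraries share only a number. Rpt3R in delta B turned to a log2 value of −0.0861 within the class of wild type. Of 100 named values with 1 library left out, 77 kept their direction and their side of the threshold, 23 no longer passed it and 0 changed sign. The cause of these changes was not tested. Fits that leave a group with 1 library assume that it varies like the others. Copies with at most 11 counts are limited by depth.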
